A study of Mus musculus with 2 samples.

Results

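The genes described here are 10 serotonin receptor genes of the mouse (Htr1a, Htr1b, Htr1d, Htr1f, Htr2a, Htr2c, Htr3a, Htr4, Htr6 and Htr7), taken by name from the GENCODE M21 annotation, in which 21938 protein-coding genes were examined. Chromatin accessibility was measured by DNase-seq, in which the enzyme DNase I is added to isolated nuclei and cuts preferentially where nucleosomes leave the DNA open. The tissue was left cerebral cortex of male B6CASTF1/J mice aged 2 months, a first-generation cross of the C57BL/6J and CAST/EiJ strains. Replicates 1 and 2 are biological replicates described as separate males, although both carry 1 donor record in the labels, and are treated here as 2 animals. They make up the only group, so no treated, mutant or other contrast exists. No gene carries a planned change, and both libraries come from whole tissue that mixes neurons, glia and vessels.

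Serotonin reaches the cortex in axons from the raphe nuclei of the brainstem and acts there on several receptor families. Receptors encoded by the Htr1 genes couple to Gi/o proteins and lower cyclic AMP, and those of the Htr2 genes couple to Gq/11 and phospholipase C. Htr3a encodes a subunit of a ligand-gated cation channel, and Htr4, Htr6 and Htr7 encode receptors coupled to Gs, which raises cyclic AMP. In the cortex, Htr2a is known for its place on pyramidal neurons and as the target of psychedelic drugs, and Htr3a marks a class of interneurons.

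For each replicate the authors deposited a shorter and a longer list of peaks, footprints, and a false discovery rate (FDR) along the genome. A peak is a stretch of enriched cutting, and its height is a deposited signal whose scale is not stated. A footprint is a short protected stretch inside accessible DNA. The shorter lists held 63928 peaks in replicate 1 and 76440 in replicate 2 after overlapping intervals were joined. Footprints numbered 280338 in replicate 1 and 245020 in replicate 2. Heights of peaks paired between the replicates were higher in replicate 1, by a median of 0.45 on the log2 scale over 43811 pairs. Log2 ratios of replicate 1 over replicate 2 called centred below have had this median taken off. Read depth is not known from these files, so no interval for counting error is given. With 1 group and 2 replicates, differences between genes are described and not tested.

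The tissue label was set against marker genes. Promoter peaks in both shorter lists were present at 5 of 6 pan-neuronal genes, 4 of 5 deep-layer projection neuron genes, 4 of 5 astrocyte genes and 8 of 14 interneuron genes, where 56.2% of all coding genes had one, so the interneuron share lay near the background. They were also present at 4 of 6 genes that mark striatum or hippocampus, which adjoin the cortex, and at 2 of 4 oligodendrocyte genes. Prox1 is counted both among these 4 and among the 8 interneuron genes. Of 7 cortical excitatory neuron genes, 3 had a promoter peak in both replicates and the other 4 in replicate 1 alone. The shorter lists held no promoter peak at 4 microglial and 3 endothelial genes, and none shared at the 6 choroid plexus genes. The longer list of replicate 2 alone had peaks at the microglial genes Cx3cr1 (0.419) and Tmem119 (0.324) and the endothelial gene Cdh5 (0.365). Shares are not matched for CpG content (observed over expected around the outermost start site). Of coding genes in the same 1 of 20 CpG bins, a median of 90.2% were called in both replicates for deep-layer genes. The median was 65.1% for pan-neuronal, 62.6% for interneuron, 51.7% for cortical excitatory, 80.3% for striatum or hippocampus and 39.2% for choroid plexus genes. It was 26.6% for astrocyte, microglial and endothelial genes, and 19.7% for oligodendrocyte genes. In bulk tissue, few cells with an open site and weak opening in many cells cannot be told apart.

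The sequences that carry the main observations are the tallest peaks away from any transcription start site (TSS) at Htr1b, Htr1d, Htr2a, Htr3a and Htr6, whose footprints were found in both replicates. They are written 5′ to 3′ on the plus strand of mm10, from the C57BL/6J reference, so bases of the CAST/EiJ allele may differ. Capitals mark bases covered by footprints of both replicates.
Htr1b, intergenic, chr9:81627031-81627230: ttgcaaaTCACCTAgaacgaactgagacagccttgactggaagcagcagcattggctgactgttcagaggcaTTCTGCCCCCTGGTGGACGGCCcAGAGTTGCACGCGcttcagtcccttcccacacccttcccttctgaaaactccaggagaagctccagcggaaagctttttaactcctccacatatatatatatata
Htr1d, intergenic, chr4:136454841-136455040: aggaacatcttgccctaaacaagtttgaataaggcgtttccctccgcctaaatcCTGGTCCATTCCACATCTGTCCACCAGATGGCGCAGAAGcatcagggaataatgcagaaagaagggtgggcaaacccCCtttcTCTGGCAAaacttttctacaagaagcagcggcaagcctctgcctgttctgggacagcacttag
Htr2a, intron, chr14:74643431-74643630: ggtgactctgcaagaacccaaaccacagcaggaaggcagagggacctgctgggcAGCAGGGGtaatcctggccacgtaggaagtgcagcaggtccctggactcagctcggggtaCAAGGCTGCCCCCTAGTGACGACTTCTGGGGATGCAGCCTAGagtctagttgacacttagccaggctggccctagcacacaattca
Htr3a, intergenic, chr9:48894182-48894381: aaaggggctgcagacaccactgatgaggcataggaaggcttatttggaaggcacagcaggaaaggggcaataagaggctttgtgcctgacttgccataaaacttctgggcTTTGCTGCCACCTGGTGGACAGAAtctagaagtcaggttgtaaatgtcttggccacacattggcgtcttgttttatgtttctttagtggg
Htr6 locus, intron of Nbl1, chr4:139086141-139086340: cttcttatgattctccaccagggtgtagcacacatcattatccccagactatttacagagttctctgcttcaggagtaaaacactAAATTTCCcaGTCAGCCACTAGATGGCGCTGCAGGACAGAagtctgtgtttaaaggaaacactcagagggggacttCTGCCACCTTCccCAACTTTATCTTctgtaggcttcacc

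These 5 windows lie 5.38 kb (Htr1b), 30.2 kb (Htr1d), 2.60 kb (Htr2a) and 16.7 kb (Htr3a) downstream of the nearest TSS of the receptor gene, and for Htr6 10.6 kb upstream of it. The capitals of the Htr1b, Htr1d, Htr3a and Htr6 windows contain a match to the core string of CTCF, a zinc finger protein known for organizing chromatin loops and insulator sites. In these 4 windows all bases of the match lay inside footprints of both replicates. The matches are on the plus strand at Htr1d and Htr6 and on the minus strand at Htr1b and Htr3a. The Htr2a window held no match to this string.

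A second set of sequences shows footprints without a match to that string. The Htr1f window is from an intron 83.2 kb into the gene, and the Htr1a window lies just upstream of its promoter. The promoter stretches of Htr1b, a minus-strand gene, and Htr2c, a plus-strand gene, begin directly upstream of the outermost annotated TSS. Capitals again mark bases in footprints of both replicates.
Htr1f, intron, chr16:65022441-65022640: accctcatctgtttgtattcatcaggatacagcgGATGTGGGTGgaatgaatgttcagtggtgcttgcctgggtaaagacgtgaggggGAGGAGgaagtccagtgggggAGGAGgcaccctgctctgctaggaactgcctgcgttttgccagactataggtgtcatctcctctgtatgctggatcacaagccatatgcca
Htr1a, upstream, chr13:105442684-105442883: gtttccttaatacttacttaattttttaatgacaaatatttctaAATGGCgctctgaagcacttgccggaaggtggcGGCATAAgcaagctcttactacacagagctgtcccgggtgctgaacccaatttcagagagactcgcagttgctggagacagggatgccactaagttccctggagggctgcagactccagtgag
Htr1b, promoter, chr9:81633829-81634022: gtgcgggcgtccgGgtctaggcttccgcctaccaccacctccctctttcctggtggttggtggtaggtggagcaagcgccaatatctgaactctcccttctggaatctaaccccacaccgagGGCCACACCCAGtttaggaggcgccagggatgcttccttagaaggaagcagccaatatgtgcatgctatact
Htr2c, promoter, chrX:146962341-146962512: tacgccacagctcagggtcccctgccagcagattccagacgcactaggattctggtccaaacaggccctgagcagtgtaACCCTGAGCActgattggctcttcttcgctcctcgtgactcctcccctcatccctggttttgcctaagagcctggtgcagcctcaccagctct

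Receptor promoters, defined as 500 bp on both sides of any annotated TSS, carried low peaks. A promoter peak of the shorter lists was found in both replicates at 4 of the 10 receptor genes, Htr1b, Htr2c, Htr3a and Htr4. By the same rule 56.2% of all protein-coding genes were called. Replicate 1 alone had a peak at 5 more, Htr1a, Htr1d, Htr2a, Htr6 and Htr7, and Htr1f had none in either replicate. Replicate 1 thus called 9 of 10 receptor genes, against 61.6% of all coding genes, and replicate 2 called 4 of 10, against 57.1%. A peak in replicate 1 alone was seen at 5.37% of all coding genes, and no peak at 37.5%.

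All receptor promoter peaks were shorter than most other promoter peaks. The 9 receptor promoters with a peak in replicate 1 had heights of 0.488 to 1.10 with a median of 0.678, against a median of 3.38 over 13503 coding promoters. They stood between the 2.14th and 14.4th percentile of those promoters. In replicate 2 the 4 receptor promoters had heights of 0.317 to 0.689 with a median of 0.618, against a median of 2.08 over 12529 coding promoters, between the 0.750th and 10.6th percentile. Low peaks were often missed by replicate 2 at other genes too. Of 1667 coding genes whose promoter height in replicate 1 lay in the receptors' range, 57.2% had a promoter peak in replicate 2, and among the 9 receptor genes 4 had one.

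**Figure D1:**
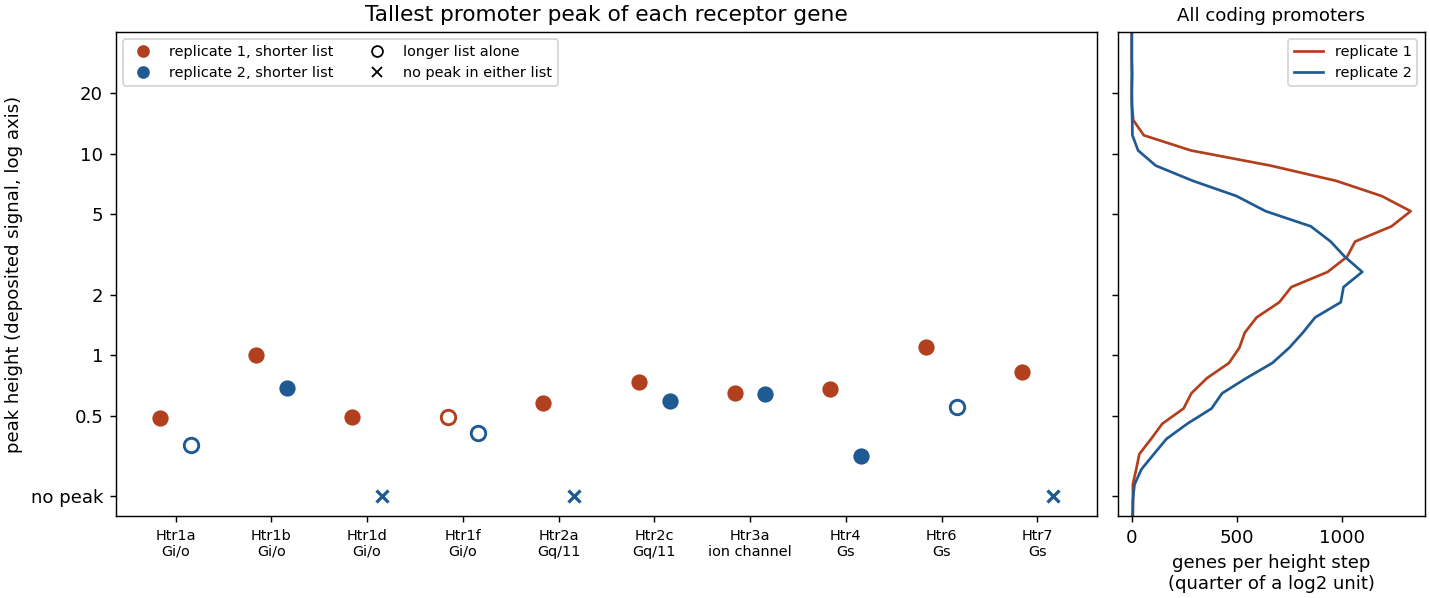
Height of the tallest promoter peak of each receptor gene on a log axis, replicate 1 left of replicate 2, beside the heights of all coding promoters with a peak; open circles are peaks of the longer list alone and crosses at the bottom mark no peak in either list. The receptor peaks of the shorter lists lie between 0.317 and 1.10, in the lower tail of the distributions on the right.

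Among the Gi/o-coupled receptors, Htr1b had the tallest promoter. Htr1b encodes a receptor known as an autoreceptor on serotonin axon terminals, and its tallest promoter peak had a height of 1.00 in replicate 1 and 0.689 in replicate 2. That peak spans 670 bp around the outermost TSS (mm10 chr9:81633588-81634257), and 2 more promoter peaks inside the gene were called in replicate 1 alone. Htr1a, the somatodendritic autoreceptor of raphe neurons and a postsynaptic receptor in forebrain, had a promoter peak of 0.488 in replicate 1 and 0.358 in replicate 2, the second in the longer list alone. Htr1d, a terminal receptor close to Htr1b, had a height of 0.496 in replicate 1, and neither list of replicate 2 held a peak there. The Htr1d peak lay in an intron, 439 bp from the nearest annotated TSS. With TSSs of protein-coding transcripts alone, Htr1d had no promoter peak. Htr1f, whose human counterpart is the target of the migraine drug lasmiditan, had promoter peaks in the longer lists alone, with 0.492 in replicate 1 and 0.412 in replicate 2.

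The Gq/11-coupled receptors showed a peak in both replicates at Htr2c and in 1 at Htr2a. Htr2c, whose transcript undergoes A-to-I editing and which is a known choroid plexus receptor, had a height of 0.734 in replicate 1 and 0.594 in replicate 2 (chrX:146962301-146962580). Of the 6 choroid plexus markers, 5 had no promoter peak in either shorter list, and Kl had one of 0.410 in replicate 1 alone. The longer list of replicate 1 added Clic6, with a height of 0.471. Htr2a had a height of 0.583 in replicate 1, in its 5′ UTR, and neither list of replicate 2 held a peak there. The channel gene Htr3a had almost equal heights, 0.648 in replicate 1 and 0.641 in replicate 2 (chr9:48910905-48911227).

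Of the Gs-coupled receptors, Htr4 alone had a promoter peak in both shorter lists, with a height of 0.678 in replicate 1 and 0.317 in replicate 2. Htr6 had the tallest receptor promoter peak of replicate 1, at 1.10, and a peak of 0.554 in replicate 2 that was in the longer list alone. Htr7 had a height of 0.825 in replicate 1 and no peak in either list of replicate 2. With the longer lists, a promoter peak was present in both replicates at 7 of the 10 receptor genes, against 61.0% of all coding genes. The 3 genes without one, Htr1d, Htr2a and Htr7, each had a peak in replicate 1 alone.

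The centred log2 ratio of promoter height could be formed for 4 receptors. It was 0.09 for Htr1b, -0.15 for Htr2c, -0.44 for Htr3a and 0.64 for Htr4. Over 12324 coding promoters with peaks in both replicates the middle 90% ran from -0.45 to 0.92, and all 4 receptors lay within it. The ratios had an SD of 0.43 over those promoters. Each is a ratio of 1 library to 1 library.

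The deposited FDR gave a graded view of the missing peaks. The lowest promoter FDR was at or under 0.001 in both replicates at 4 of the 10 receptors, against 57.1% of all coding genes. At a level of 0.01 the number was 6, against 59.6%, and at 0.05 it was 8, against 61.9%. The 4 receptors at or under 0.001 were the 4 with shared peaks. Peaks and FDR come from the same libraries, so this match is not separate evidence for the calls. Htr1a reached 0.00112 in replicate 2 and Htr1f reached 0.00442 in replicate 1 and 0.00174 in replicate 2. Htr6 reached 0.0232 in replicate 2 and Htr7 0.0404. Htr1d and Htr2a had no stretch listed under 0.05 in replicate 2.

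Receptor promoters spanned bins 4 to 19 of 20 bins of CpG content, which rises with the share of coding promoters called. CpG content was measured around the outermost TSS of each gene alone, whereas a peak at any TSS counted as a call. At Htr1d the called peak lay outside the window in which CpG content was measured. The ratio of observed to expected CpG was 0.925 at Htr7 and 0.755 at Htr6, and 92.2% and 89.8% of coding genes in the same 1 of 20 CpG bins had a promoter peak in both replicates. Neither of these receptor genes had one, nor did Htr1f, with a ratio of 0.645 and a share of 78.8% in its bin. At the other end, Htr3a had a ratio of 0.170, and only 12.9% of coding genes in its bin were called, yet Htr3a was called in both replicates. Htr2c (0.610), Htr1b (0.511), Htr4 (0.487), Htr1a (0.423), Htr2a (0.405) and Htr1d (0.254) lay between. The calls of the receptor genes did not follow the order of their CpG content.

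**Figure D2:**
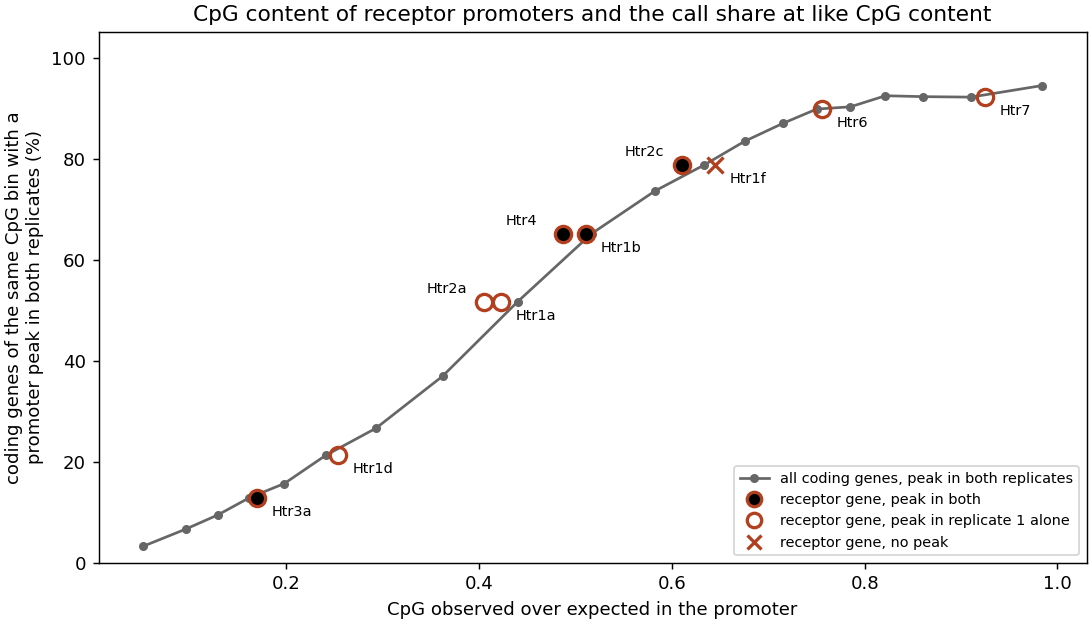
The horizontal axis is CpG observed over expected around the outermost TSS of each receptor gene. The vertical axis is the percentage of coding genes in the same CpG bin that had a promoter peak in both replicates. Grey points are the 20 bins at their median CpG ratio. Htr7, Htr6 and Htr1f lie where 78.8% or more of genes were called and were not called in both, and Htr3a lies where 12.9% were called and was.

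Few footprints in receptor promoter peaks were shared by the replicates, although replicate 1 had 44 there and replicate 2 had 14. Of the 9 receptor genes with a promoter peak, 3 held a footprint shared by both replicates, against 87.9% of all coding genes with a promoter peak in either replicate. Among the coding genes of like height in replicate 1 the share was 45.9%. At 5 of the 9 receptor genes the shorter list of replicate 2 had no promoter peak. There were 4 shared footprints in all, 2 at Htr1b and 1 each at Htr2c and Htr3a, against a median of 3 per coding gene. Of the 2 at Htr1b, 1 rests on an overlap of 1 base. Htr1b had 15 footprints in replicate 1 and 7 in replicate 2 over its promoter peaks. Htr7 had 10 in replicate 1 and none in replicate 2, where no peak was called. The Htr1b footprint farther from its TSS, capitalized in the promoter stretch above, covered all bases of the SP/KLF string GGGTGTGG on the minus strand in both replicates. This string occurs in 2.48% of 200-bp windows at all 16646 shared promoter regions.

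At Htr1a, the peaks found in both replicates lay just outside the 500-bp window. One, 768 bp upstream (chr13:105442696-105442871), had a height of 1.07 in replicate 1 and 0.547 in replicate 2. The other, inside the single coding exon (chr13:105444401-105444960), had a height of 0.842 in replicate 1 and 0.452 in replicate 2. Each held 2 shared footprints, while the Htr1a promoter peak held none. Both flanking peaks were higher than the promoter peak in both replicates. The upstream window shown above also holds the REST string TTCAGCACC on the minus strand, outside the footprints. That string is in 0.243% of windows at shared distal regions and 0.318% at shared promoter regions. Its share in regions that flank a TSS, as this one does, was not taken.

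Distal regions lay over 2000 bp from every annotated TSS of any gene and were counted in each locus, which runs from 20 kb before the gene to 20 kb after it. The 10 loci held 23 distal regions, of which 13 were found in both replicates, 2 in replicate 1 alone and 8 in replicate 2 alone. At least 1 shared distal region was present at 8 of the 10 receptor genes, against 46.7% of all coding genes. Locus length matters to this count, and each gene was set beside coding genes in the same 1 of 20 length bins. The share of coding genes without a shared distal region ran from 10.4% in the Htr2c bin to 73.9% in the Htr1a bin. It was 36.6% or lower for Htr1f, Htr2a, Htr2c, Htr4 and Htr7, and 52.9% or higher for the other receptor genes. The 46.7% is not matched for length, and an excess beyond locus length was not tested. Htr1f (221 kb) had 3 shared regions against a mean of 2.14 in its bin, Htr2a (109 kb) had 3 against 1.35, and Htr6 (54.5 kb) had 2 against 0.641. Htr1b, Htr1d, Htr3a, Htr4 and Htr7 had 1 each, against means of 0.436, 0.734, 0.603, 2.14 and 1.63. Htr1a had 0 against a mean of 0.395. Among genes of the same bin on the same chromosome, the means were 1.83 for Htr1f, 1.29 for Htr2a and 1.05 for Htr6. They were 0.377 for Htr1b, 1.0 for Htr1d, 0.510 for Htr3a, 2.02 for Htr4, 1.53 for Htr7 and 0.552 for Htr1a.

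The Htr2c locus was empty but for its promoter. Over 275 kb it had no distal region in the shorter list of either replicate, whereas coding genes in its length bin had a mean of 4.51 shared ones and 10.4% had none. Htr2c is on the X chromosome, present in 1 copy in males, and the 49 genes of that bin on the X chromosome had a mean of 1.69, with none at 32.7%. In the longer lists the Htr2c locus gained 3 distal regions, all in replicate 2 alone, with heights of 0.216, 0.155 and 0.182. These lie below all the heights of shared distal regions at the other receptor loci.

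The distal regions ranged more widely in height than the promoters did. In replicate 1 the 13 shared distal regions ran from 0.518 to 2.41 with a median of 0.704, against a median of 0.894 over all 23895 shared distal regions. In replicate 2 they ran from 0.385 to 1.65 with a median of 0.864, against 0.817. Of the 13, 6 exceeded the median of all shared distal regions in replicate 1 and 7 did so in replicate 2. At 5 of the 8 receptor genes with a shared distal region, the tallest one was higher than the promoter in both replicates, a missing promoter peak counting as lower (Htr1b, Htr1d, Htr1f, Htr2a and Htr6). This was so at 41.4% of 10246 coding genes with such a region.

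The tallest of them was the Htr1b region (chr9:81627021-81627240), 1050 bp beyond the 3′ end of the gene, with a height of 2.41 in replicate 1 and 1.65 in replicate 2. It stood at the 94.3rd percentile of shared distal regions in replicate 1 and at the 91.9th in replicate 2, while the Htr1b promoter stood at the 12.3rd percentile of promoters in replicate 1 and at the 10.6th in replicate 2. The Htr2a region (chr14:74643441-74643620), in an intron of that gene, had a height of 2.27 in replicate 1 and 1.38 in replicate 2. These 2 regions are nearer to the TSS of their receptor than to any other protein-coding TSS. With noncoding genes counted, the TSS nearest to the Htr1b region is that of D430036J16Rik, at 4311 bp.

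The Htr6 locus held the next tallest, 2.18 in replicate 1 and 1.34 in replicate 2 (chr4:139086141-139086340), within an intron of the neighbouring gene Nbl1. Its nearest TSS is that of Nbl1, a gene for a secreted antagonist of bone morphogenetic proteins, at 5766 bp. A second region of the Htr6 locus (chr4:139054615-139054880), in an intron of Tmco4, had a height of 1.46 in replicate 1 and 0.959 in replicate 2. The Htr1d region (chr4:136454861-136455020) had a height of 1.39 in replicate 1 and 0.770 in replicate 2, and 6030445D17Rik has the nearest TSS. The Htr3a region (chr9:48894201-48894362) had a height of 1.46 in replicate 1 and 0.554 in replicate 2, and lies 4850 bp beyond the end of the gene. Of the 13 shared regions, 8 lay inside the receptor gene itself, and 8 had the receptor's TSS as the nearest protein-coding one.

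A lower tier lay deep in introns of the long receptor genes. Htr1f had 3, all in introns and all higher in replicate 2. The one nearest its TSS (chr16:65029721-65030000) had a height of 0.704 in replicate 1 and 0.905 in replicate 2. The next (chr16:65022441-65022640) had 0.527 in replicate 1 and 0.864 in replicate 2, and the last (chr16:64934101-64934320), 172 kb into the gene, had 0.596 in replicate 1 and 0.966 in replicate 2. Htr2a had a second intronic region (chr14:74659564-74659768) with a height of 0.522 in replicate 1 and 0.783 in replicate 2, and one in its 3′ UTR (chr14:74709201-74709316) with 0.617 in replicate 1 and 0.459 in replicate 2. The Htr4 region (chr18:62454361-62454580), in an intron 113 kb into the gene, had a height of 0.617 in replicate 1 and 0.669 in replicate 2. The Htr7 region (chr19:36003177-36003347), in an intron 54.0 kb into the gene, had a height of 0.518 in replicate 1 and 0.385 in replicate 2.

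Among regions found in 1 replicate alone, the tallest were at Htr6, with a height of 1.11 in replicate 2 in an intron of Tmco4 and 1.03 in replicate 2 in an intron of Htr6. The tallest at Htr1d had 0.665 in replicate 1, at Htr4 0.560 in replicate 2, at Htr1b 0.554 in replicate 2, at Htr1f 0.425 in replicate 2 and at Htr7 0.384 in replicate 1. The Htr6 regions of replicate 2 are thus higher than most of the shared regions of the other loci in that replicate. The Htr1b region of replicate 2 held a footprint of both replicates over 5 of the 7 bases of the AP-1 string TGANTCA, although replicate 1 had no peak there in its shorter list. That string is in 15.2% of windows at shared distal regions.

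The shared distal regions of the receptor loci fell on both sides of the offset between the replicates. The 4 regions with the CTCF core string, at Htr1b, Htr1d, Htr3a and Htr6, had centred log2 ratios of 0.09 to 0.94, all above 0. Of the 9 without it, 2 were above 0, and the range was -1.17 to 0.26. The 3 Htr1f regions had centred ratios of -0.82, -1.17 and -1.15. The same split was seen over the genome: 69.2% of 2422 shared distal regions with the string were above 0, against 31.3% of 21473 without it. The middle 90% of all shared distal regions ran from -1.32 to 0.63, and the Htr3a region, at 0.94, lay outside it. With 1 library on each side, animal and library cannot be told apart.

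The 4 regions with the string were also higher than the other 9 in replicate 1, with heights of 1.39 to 2.41 and a median of 1.82, against 0.518 to 2.27 and a median of 0.617 without the string, and the ranges overlap. In replicate 2 the heights were 0.554 to 1.65 with a median of 1.06 where the string was present, and 0.385 to 1.38 with a median of 0.864 where it was not. Over all shared distal regions the medians with and without the string were 1.30 and 0.855 in replicate 1, and 0.817 in both sets in replicate 2. The string was present in 4 of 13 receptor regions, against 10.1% of all 23895 shared distal regions.

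**Figure D3:**
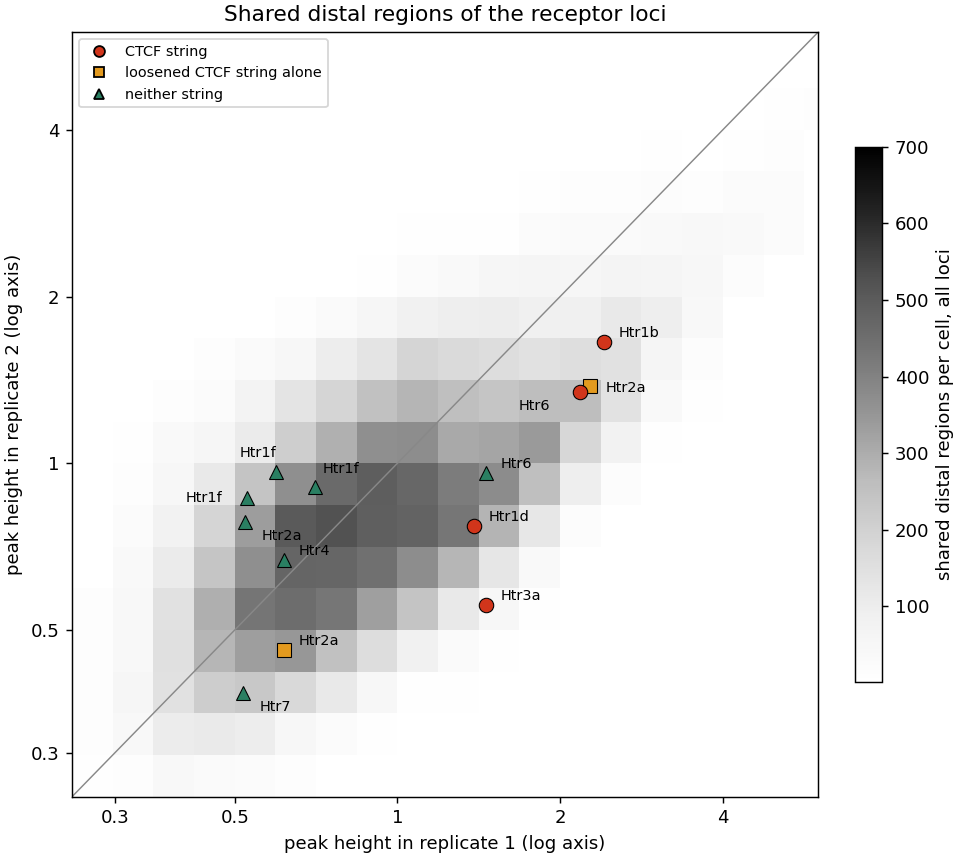
Height in replicate 1 against height in replicate 2 for the 13 shared distal regions of the receptor loci, on log axes, over the density of all 23895 shared distal regions in grey; the line marks equal height. Regions with the CTCF core string lie below the line and the 3 Htr1f regions lie above it; of the 9 regions without the string, 4 also lie below it (2 at Htr2a, 1 at Htr6 and 1 at Htr7).

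A loosened CTCF string, tried after the Htr2a sequence had been seen, matched 6 of the 13 regions, against 25.8% of all shared distal regions. The added matches were the tall Htr2a intronic region and the Htr2a region in the 3′ UTR. In the intronic region the match lay wholly inside footprints of both replicates, and in the 3′ UTR region it did not. The Htr2a intronic footprint also covers all bases of the short CRE string TGACG in both replicates, which shares bases with the loosened CTCF match and occurs in 10.5% of windows at shared distal regions. A full CRE string, TGACGTCA, was in none of the 13 regions and in 0.590% of all. At Htr1d the same footprint covers 2 copies of the string CAGATG, known from neuronal basic helix-loop-helix factors, one on each strand, and the copy on the plus strand overlaps the CTCF match. CAGATG was in 4 of the 13 regions, against 23.4% of all.

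The shared distal regions of these loci held more shared footprints than the receptor promoter peaks did. Of 13 shared distal regions, 10 held at least 1 shared footprint, against 81.2% of all shared distal regions. There were 17 in all, beside 4 in the promoter peaks, but only 4 receptor genes had a promoter peak in both replicates. The Htr6 region in Nbl1 and the Htr1f region 83.2 kb into the gene had 3 each. The stretches spanned by footprints over the CTCF matches were 46 bp at Htr1b, 45 bp at Htr1d, 33 bp at Htr3a and 30 bp at Htr6, and 48 bp at the Htr2a intron. Each span joins overlapping footprints of both replicates. Over 32230 shared footprints in all shared distal regions, such spans had a median of 20 bp and a 90th percentile of 37 bp, so those of Htr1b, Htr1d and Htr2a exceeded the 90th percentile. Where the CTCF core string was present in shared distal regions of the whole genome, it lay wholly inside footprints of both replicates in 69.8%, and in all 4 receptor regions. The regions at Htr7 and in the Htr2a 3′ UTR, the 2 lowest in replicate 2, had footprints in replicate 1 alone.

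**Figure D4:**
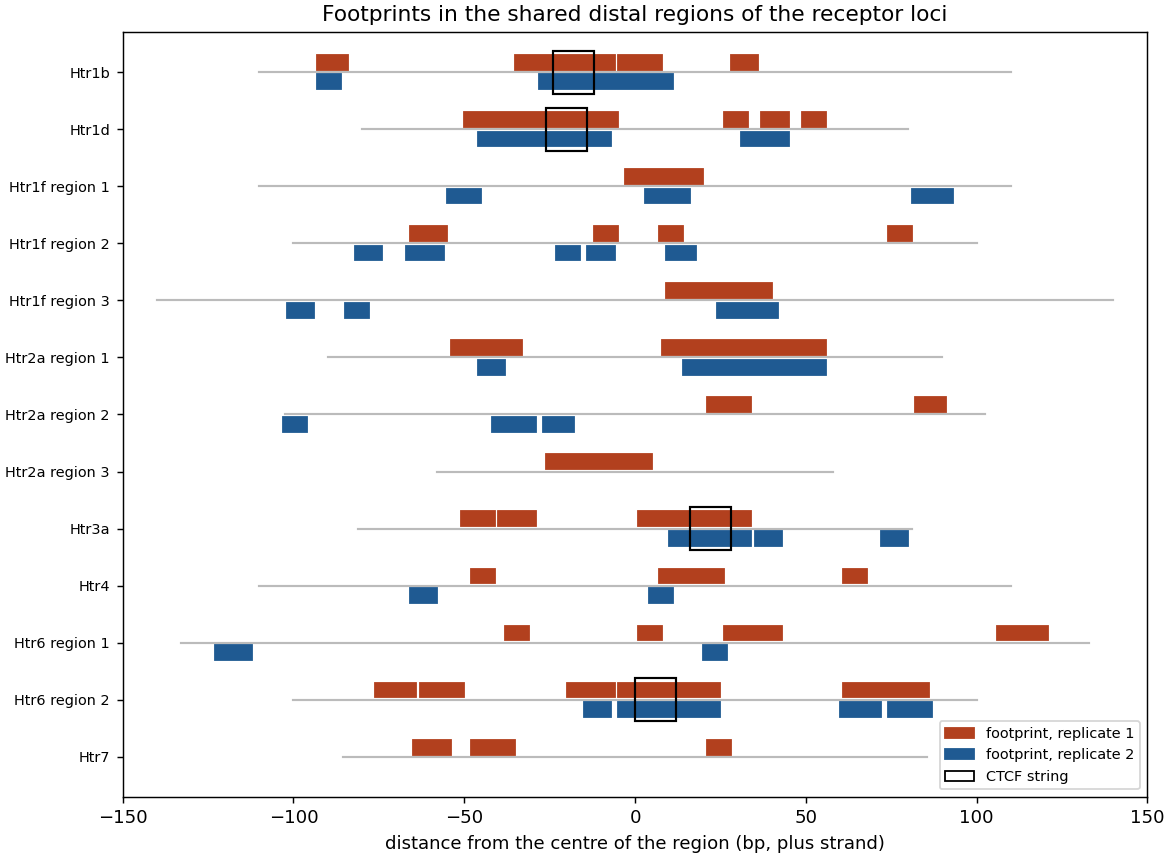
Footprints of replicate 1 (above each line) and replicate 2 (below) in the 13 shared distal regions, by distance in bp from the centre of the region; boxes mark the CTCF core string. The box lies within footprints of both replicates in each of the 4 regions that have it, and the Htr7 region has footprints in replicate 1 alone.

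The rest of the serotonin system was read from lists of genes by role. Of the 4 remaining receptor genes, 2 had a promoter peak in both replicates. Htr2b, a Gq/11-coupled receptor best known from heart valves, had a height of 0.561 in replicate 1 and 0.567 in replicate 2, and Htr5a, a Gi/o-coupled receptor, had 0.902 in replicate 1 and 0.783 in replicate 2. Htr5b had peaks in the longer lists alone, of 0.496 in replicate 1 and 0.419 in replicate 2, and Htr3b, a partner subunit of Htr3a, had none.

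Of 10 genes for synthesis, transport and breakdown of serotonin, 5 had a promoter peak in both replicates. Qdpr, which recycles the tetrahydrobiopterin cofactor, had the highest, 4.71 in replicate 1 and 4.44 in replicate 2. Aldh2, an aldehyde dehydrogenase, had 2.18 in replicate 1 and 1.13 in replicate 2, and Maoa, a monoamine oxidase, had 1.67 in replicate 1 and 0.939 in replicate 2. Gch1, the first enzyme of tetrahydrobiopterin synthesis, had 1.24 in replicate 1 and 0.567 in replicate 2. Tph2, the neuronal tryptophan hydroxylase, had 0.630 in replicate 1 and 0.479 in replicate 2. Maob had a peak of 0.285 in replicate 1 alone, and Tph1, Ddc, the serotonin transporter gene Slc6a4 and the vesicular transporter gene Slc18a2 had none. Of 7 genes that mark raphe serotonin neurons, Tph2 was the only one with a promoter peak in both replicates, and the other 6 had none in the shorter lists. Gata2 had one in the longer list of replicate 1.

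A promoter peak in both replicates was found at 26 of 29 receptor partners and effectors, against 4 of the 10 receptors and 56.2% of all coding genes. The partners' promoters lay in CpG bins in which a median of 87.0% of coding genes were called, against 65.1% for the receptors, and the part of CpG content in the difference was not tested. The other 3 partners, S100a10, Adcy1 and Adcy2, had a promoter peak in replicate 1 alone. The tallest were Cdk5, a kinase, with 9.38 in replicate 1 and 8.12 in replicate 2, Gna11, a Gq/11 alpha subunit, with 11.7 in replicate 1 and 5.91 in replicate 2, and Prkaca, the catalytic subunit of cyclic AMP-dependent protein kinase, with 9.04 in replicate 1 and 5.96 in replicate 2. All 3 stood above the 93rd percentile of coding promoters in both replicates, whereas no receptor promoter passed the 14.4th.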

How the data were processed

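DNase-seq of left cerebral cortex from 2 samples, described as separate males under 1 donor record, was analysed as deposited, per the labels aligned to mm10. Aligner and peak caller were not given in the sources used here. For each replicate the authors deposited a shorter and a longer peak list whose height is a signal of unstated scale, footprints, and an FDR track whose values were read as p-value or q-value type numbers. Depth is unknown.

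Intervals of a list that overlapped by at least 1 bp were joined, keeping the highest value, and abutting intervals were left apart. Chromosome lengths of GRCm38 were checked against the peaks on 21 chromosomes. Promoters (500 bp around any TSS of GENCODE M21), distal regions (over 2000 bp from every TSS) and footprints were intersected with an overlap of at least 1 bp, in Python 3.11.15 with pandas 2.3.3 and numpy 2.4.6. Motif strings were searched on both strands in 200-bp windows at region centres. The calls recovered all 200 promoters planted in simulated data over 21938 genes, and all 100 planted distal regions. The planted peaks overlapped by construction, so this checked the code and not the detection of low peaks.

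All 10 receptors, all remaining receptors and all genes of synthesis, transport and breakdown are named. Of the partners, the 3 tallest and any without a peak are named, and in each locus the tallest shared region and the tallest region of 1 replicate. The members, lists, strings and tests were chosen with earlier results of these data known. Statements are descriptions of 2 libraries of 1 group, without a test. Alternatives varied the peak list, windows, TSS set, height minimum, overlap, centring and replicate.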

Additional observations from a re-analysis of the deposited data

How the results depend on the processing

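No paired analysis was possible because both samples belong to 1 group. Receptor promoters called in both replicates numbered 4. They were 7 with the longer lists and 1 with peaks at or above the median height of their list, and 4 to 9 when one replicate was left out. All 4 stayed called with the longer lists. The 13 shared distal regions became 8 in the gene body alone, 8 where the receptor's TSS had to be the nearest, and 5 with peaks at or above the median height, and 15 to 21 in single replicates. The 8 receptor genes with such a region became 4 in the gene body alone and 4 with peaks at or above the median height. Leaving out a replicate gave 14 to 44 footprints in promoter peaks, where 4 were shared, and 31 to 37 in distal regions, where 17 were shared. Requiring an overlap of at least 50% of the longer footprint left 3 shared in promoter peaks and 13 in distal regions. Of 46 alternative counts, 33 lay within 1.5 times of the count given in the report. The centred log2 ratio of promoter height changed sign for Htr1b when centred on promoters (-0.23), for Htr2c without centring (0.30) and with the longer lists (0.020), and for Htr3a without centring (0.014). The heights themselves moved in 3 of 49 alternatives, counting only those in which the promoter kept a peak. Left out of this count were alternatives in which the peak was lost. Htr1d lost its peak with TSSs of protein-coding transcripts alone, and Htr1d and Htr6 lost theirs with a narrower promoter window. Depth was not known, so weak promoters missing in 1 replicate cannot be told from closed ones.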
